A study of Homo sapiens with 10 samples.

Results

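PDE1C, PRKCB, TAOK3, OSBPL6, BCHE, PAG1, SPOCK1 and TPBG are 8 of the 12373 genes counted in single cells of the human ovarian cancer line Kuramochi. They were picked because they were near 0 in untreated cells and higher later in an escalation of olaparib; the genes were chosen by these levels. 7 of them were listed at 0 in the untreated population, and TPBG stood at 2.25 CPM (molecular identifiers of the gene, scaled to a library of 1000000). Since these values chose the genes, their higher level in treated cells is a description and no finding. Described below is how the 8 genes differed from each other: the dose at which each was first seen, the cells that carried it, and its course at the highest doses. A late start was part of the choice, and the genes were chosen with earlier results of these data known. These differences are therefore a description too.

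The genes have been called signalling genes, but their products do different work. PDE1C is a calcium-activated phosphodiesterase that breaks down cyclic AMP and cyclic GMP. PRKCB is a conventional protein kinase C, activated by calcium and diacylglycerol and best known from B cells and neurons. TAOK3 is a kinase of the TAO family, which acts upstream of stress-activated MAP kinase cascades. PAG1 is a membrane adaptor that brings the kinase CSK to SRC-family kinases and so restrains them. OSBPL6 belongs to the oxysterol-binding proteins, which carry lipids between membranes. Of the surface and secreted products, TPBG is an oncofetal glycoprotein that dampens Wnt signalling, SPOCK1 is a secreted proteoglycan (testican), and BCHE is butyrylcholinesterase, an esterase of blood plasma made mainly by the liver.

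Per the labels, Kuramochi is an epithelial line with a mutant BRCA2, and every population shares that genotype. BRCA2 serves the repair of double-strand breaks by homologous recombination, and olaparib inhibits PARP enzymes. The untreated population is C, and T1, T2.5, T5, T10, T20, T40, T80, T160 and T320 were grown to confluency in olaparib at 1, 2.5, 5, 10, 20, 40, 80, 160 and 320 µM. Each population is 1 inDrop library, a droplet method that tags every transcript with a molecular identifier (UMI), and all come from 1 escalation of 1 line. A difference between populations therefore cannot be told apart from a difference between libraries, and no test is given. Intervals are exact 95% intervals of counting error only.

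The starts of PRKCB and BCHE are shown because the genes were highest in different states and their promoters differ in base composition. 6 of the 8 genes had a promoter in the RefSeq table, 15 promoters in all on GRCh38.p14, each of 300 bases from 250 before to 50 after the start; PAG1 and SPOCK1 were not in it. The PRKCB sequence is chr16:23835733-23836032 on the plus strand and the BCHE sequence is chr3:165837374-165837673 on the minus strand, both written 5′ to 3′. Capitals mark matches to the motifs searched on both strands, which were TGANTCA for AP-1, TGACGTCA for CRE, GGGCGG for the GC box, GGAATG for TEAD factors and TATAAA for the TATA element.
PRKCB: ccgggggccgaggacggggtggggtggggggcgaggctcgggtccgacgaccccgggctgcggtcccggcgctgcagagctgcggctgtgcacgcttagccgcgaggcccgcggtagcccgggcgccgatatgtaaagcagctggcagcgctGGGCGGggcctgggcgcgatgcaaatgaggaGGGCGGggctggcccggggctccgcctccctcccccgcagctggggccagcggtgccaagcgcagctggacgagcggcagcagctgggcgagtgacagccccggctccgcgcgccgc
BCHE: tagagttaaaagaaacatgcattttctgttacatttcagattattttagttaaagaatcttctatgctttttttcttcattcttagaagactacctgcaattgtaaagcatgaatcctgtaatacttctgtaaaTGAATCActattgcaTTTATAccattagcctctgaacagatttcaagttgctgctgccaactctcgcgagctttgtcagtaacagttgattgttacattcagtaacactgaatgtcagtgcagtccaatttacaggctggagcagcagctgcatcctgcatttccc
The capitals in PRKCB are 2 GC boxes, at bases 153 to 158 and 184 to 189. In BCHE they are an AP-1 match at bases 135 to 141 and, without overlap, a TATA match on the other strand at bases 150 to 155. The PRKCB stretch held 38 CpG dinucleotides and 77.7% G and C, and that of BCHE held 2 and 36.7%. Over all 35116 promoters of the table the medians were 14 CpG and 58.7%. An AP-1 match occurred in 7.71% of them, a CRE match in 1.85%, a GC box in 45.0%, a TEAD match in 14.0% and a TATA match in 11.5%. None of the other 13 matched promoters of these genes held an AP-1 or CRE match, which says only that these letters are not in these windows.

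The 10 libraries held 1976069 (T5) to 9343704 (C) UMIs in 726 (T5) to 2645 (T160) cells, with a median of 1145 (T2.5) to 2974.5 (T80) UMIs per cell. In each library every gene was either at 0 or present in about 1% of the cells or more: the fewest cells of any listed gene were 18 of 1845 in C, 23 of 2312 in T1 and 7 of 726 in T5. So a gene listed at 0 may still have been present in fewer cells than that, and no ratio to such a value is formed. A deposited table gives a state, C or S1 to S5, to 8240 of the 18209 cells, here called listed cells. That deposit is labelled g1, which may stand for the G1 phase of the cell cycle. How its cells were chosen is not given. The sources used here do not say how states were made; if expression made them, a gene's difference between states is partly set by that. Among 17195 distinct barcodes, 970 occurred in more than 1 library. Of the 6 epithelial markers analysed, 5 were above 0 in C, together 1639 CPM, and EPCAM was listed at 0. Of markers fixed for other cell types, VWF and CDH5 (endothelium) were at 0 from T5 on, and CD68, the 1 leukocyte marker analysed here, was at 0 up to T20 and at 43.9 CPM in T320. PTPRC and MS4A1, which mark leukocytes and B cells, were not analysed here.

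The 8 genes came into view at 3 doses. TPBG apart, none was listed in C, T1 or T2.5. PDE1C, TAOK3, PAG1, SPOCK1 and, after its trace in C, TPBG were first listed in T5, PRKCB and OSBPL6 in T10, and BCHE in T40. In T5, TAOK3 and TPBG were each listed in 7 cells, the fewest any listed gene had there, so their place in T5 rather than T10 hangs on a few cells. Taken instead by the first population at 10 CPM or more, only PAG1 started in T5, PDE1C, PRKCB, TAOK3, SPOCK1 and TPBG in T10, and OSBPL6 and BCHE in T40. In the whole matrix, 34 genes were listed at 0 in C and reached 50 CPM later, 7 of the 8 among them, and 58.8% of the 34 were first listed in T5 or later. A late start was part of how the 8 were chosen, so nothing is read from that share.

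Among the enzymes of intracellular signalling, PDE1C stood at 9.11 CPM in T5, at 59.1 and 49.8 in T10 and T20, at 130 and 167 in T40 and T80, and at 103 and 123 in T160 and T320. Its T10 and T20 intervals overlapped. From T40 on it was higher but not level, with its maximum in T80, where 34.0% of cells held at least 1 UMI of it. From T80 to T160 it fell to 0.618 of that level (0.564 to 0.676). PRKCB followed nearly the same course, with 56.2 and 36.9 CPM in T10 and T20, 129 and 133 in T40 and T80, and 59.3 and 116 in T160 and T320. Its low point among the late populations was T160, at 44.5% of the T80 level. TAOK3 was at 4.05 CPM in T5, at 12.6 and 8.23 in T10 and T20, at 34.1 and 46.8 in T40 and T80, and at 38.3 and 86.3 in T160 and T320. Unlike the first 2 genes it was highest in T320, where its interval (75.8 to 97.9 CPM) lay above those of all other populations.

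PAG1, the adaptor, was listed at 11.1 CPM in T5, at 7.12 and 7.52 in T10 and T20, at 41.2 and 38.8 in T40 and T80, and at 27.9 and 66.5 in T160 and T320. Its T5, T10 and T20 intervals overlapped, so the early populations did not differ beyond counting error. OSBPL6 was at 7.12 and 5.88 CPM in T10 and T20, at 29.3 and 33.0 in T40 and T80, and at 24.4 and 63.0 in T160 and T320, again highest at the last dose.

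On the cell surface, TPBG stood at 3.54 CPM in T5, at 53.6 and 36.7 in T10 and T20, at 102 and 118 in T40 and T80, and at 60.3 and 108 in T160 and T320. In C it had 21 UMIs in 21 cells, so T320 was 48.2-fold higher (31 to 79.0). SPOCK1 stood at 5.06 CPM in T5, at 12.3 and 11.3 in T10 and T20, at 93.1 and 98.9 in T40 and T80, and at 29.2 and 41.0 in T160 and T320. It was the 1 gene of the 8 that kept less than 50% of its maximum in T320 (41.5%). BCHE, the last to be listed, was at 14.7 and 34.7 CPM in T40 and T80, and at 16.7 and 60.9 in T160 and T320. Its T40 and T160 intervals (11.5 to 18.4 and 13.9 to 19.8) overlapped, and those of T80 (30.6 to 39.2) and T320 (52.1 to 70.7) lay apart from them and from each other.

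**Figure D1:**
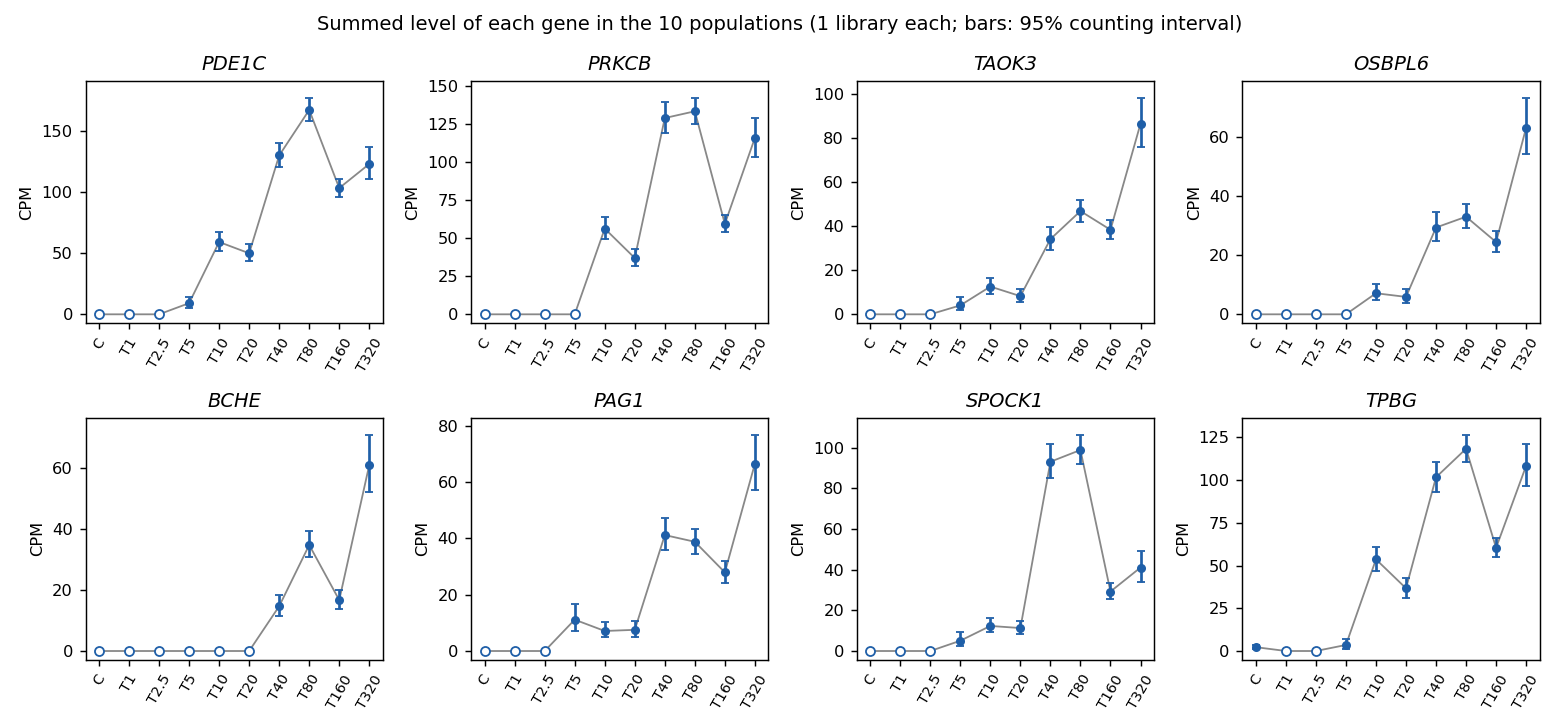
Level of each gene in CPM (linear axis, own scale per gene) in the 10 populations in order of dose, 1 library each, with exact 95% counting intervals; open circles are values listed at 0. PDE1C, PRKCB, SPOCK1 and TPBG were highest in T80, TAOK3, OSBPL6, BCHE and PAG1 in T320, and all 8 were lower in T160 than in T80.

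The steps in the plot of levels by population were measured as differences of log2(CPM + 10), in genes with at least 100 UMIs in all and at least 50 CPM in 1 of the populations compared; a difference of 1 or more counts as higher or lower. A gene that meets the 50 CPM minimum only through the population where it is high had to differ, so for such genes the count is a description and nothing is read from it against the share of all genes. From T5 to T10, 3 of the 3 genes that met these minimums were higher, PRKCB by 2.73, TPBG by 2.23 and PDE1C by 1.85, where 4.88% of all measured genes were higher. All 3 met the minimum only through T10. From T20 to T40, 4 of 4 were higher, beside 3.36% of all genes, and all 4 met the minimum only through T40. SPOCK1 had the largest of these differences at 2.28, an 8.25-fold step (6.12 to 11.3), followed by PRKCB at 1.56, TPBG at 1.26 and PDE1C at 1.22. The other 4 genes were under the 50 CPM minimum, and each of them also differed by more than 1. The median over the 8 genes was 1.30, beside 0.06 over all measured genes. Here and below, the median of the 8 genes includes those under the minimum, and that of all measured genes does not. The 8 were also chosen as higher later in the escalation, so nothing is read from the 1.30.

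Between these steps, from T10 to T20, none of 3 measured genes was higher or lower, against 2.80% and 3.86% of all genes. 6 of the 8 differences were below 0, with a median of -0.16 beside -0.21 over all measured genes. From T40 to T80 none of 4 measured genes was higher or lower either, where 0.315% of all genes were higher and 1.92% lower. BCHE, under the minimum, differed most at that step, by 2.37-fold (1.82 to 3.11).

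From T80 to T160 all 8 differences were below 0, with a median of -0.70 beside 0.22 over all measured genes. 2 of 4 measured genes were lower, SPOCK1 by 1.47 and PRKCB by 1.05 on the log2 scale, beside 4.55% of all genes. SPOCK1 met the minimum only through T80, and PRKCB met it in both populations. TPBG, at -0.87, fell past 1 as well (-1.12) when the libraries were scaled by TMM, edgeR's trimmed mean of M values. From T160 to T320 all 8 differences were above 0, and 3 of 7 measured genes were higher, BCHE by 1.41, OSBPL6 by 1.09 and PAG1 by 1.01, beside 1.25% of all genes. These 3 met the minimum only through T320. With PAG1 so close to 1, TMM scaling put it at 0.98, and in listed cells alone BCHE was the 1 gene past 1. Over the whole escalation, C to T320, 7 of 7 measured genes were higher, where 15.4% of all genes were. The choice of the genes fixed that count, and nothing is read from it. SPOCK1, at 41.0 CPM, did not meet the 50 CPM minimum.

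The states within a library tell which cells carried each gene. In T5, listed cells belonged to S1 (183 cells) or S2 (215 cells). All 12 PDE1C UMIs of these cells were in S2, at 18.7 CPM, and the 0 in S1 allows up to 6.61 CPM. All 7 SPOCK1 UMIs were in S2 too, at 10.9 CPM. PAG1 had 3 UMIs in S1 and 8 in S2, TAOK3 1 and 3, and TPBG 1 and 1, too few to tell the states apart. S2 cells were also present in T2.5 (134 cells), where none of the 8 genes was listed. The fewest cells of any listed gene in T2.5 were 15. A gene seen in few S2 cells could thus be listed at 0 there, so these zeros say nothing about that state. PRKCB and OSBPL6 first appeared in T10, which held 688 cells of S2, 146 of S3 and 196 of S4, and BCHE in T40, which held 221 of S3 and 697 of S4.

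PRKCB had its highest level in S3 of T10, T20, T40 and T80. In T10 it stood at 273 CPM in S3, beside 14.6 in S2 and 30.9 in S4. S3 thus was 18.6-fold above S2 (11.5 to 31.6), and 87 of the 122 PRKCB UMIs of listed cells (71.3%, 62.4 to 79.1) came from the 14.2% of listed cells in S3. A PRKCB UMI was found in 41.1% of S3 cells and in 2.62% of S2 cells, at median depths of 2099 and 1943 UMIs. Unlisted cells of T10, which have no state, held a further 115 PRKCB UMIs, at 57.3 CPM. In T20 the levels were 136 CPM in S3, 8.18 in S2 and 32.3 in S4, and S3 gave 77.5% of the UMIs (67.4 to 85.7). S3 kept the highest level in T40 (233 CPM, beside 104 in S4) and in T80 (419, beside 120), but S4 cells made up 75.9% and 92.1% of listed cells there and supplied most PRKCB UMIs. S3 gave 39.3% of them in T40 and 22.8% in T80.

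PDE1C was highest in S4 of the same libraries. In T10 it was at 148 CPM in S4, 37.6 in S2 and 6.27 in S3, where only 2 of its UMIs were found. S4 was 3.94-fold above S2 (2.71 to 5.74), and S3 lay at 0.167 of S2 (0.0197 to 0.632). In T20 the order was the same, with 162 CPM in S4, 35.4 in S2 and 9.87 in S3. S2, the largest state, still held 43.9% of the listed PDE1C UMIs in T10 (S4 54.5%) and 53.6% in T20 (S4 41.2%). In T40, S4 held 159 CPM and S3 32.6, a 4.89-fold difference (3.04 to 8.36). The S4 intervals of T10, T20 and T40 overlapped, and S4 made up 19.0%, 11.6% and 75.9% of listed cells in these libraries. Unlisted cells, which have no state, held 62.8, 56.6 and 129 CPM of PDE1C. The part of the S4 share in the higher T40 level was not tested.

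TAOK3 and OSBPL6 were also seen chiefly in S4 of T10. TAOK3 was at 44.2 CPM in S4, beside 5.57 in S2 and 9.40 in S3, and S4 was 7.93-fold above S2 (3.35 to 20.8). OSBPL6 had 10 of its 14 listed UMIs in S4 (22.1 CPM), 3 in S2 and 1 in S3. In T20 OSBPL6 had 6 UMIs in S4, 2 in S2 and none in S3, which allows up to 7.28 CPM there. For TAOK3 the T20 states were 20.2 CPM in S4, 9.87 in S3 and 5.45 in S2, with overlapping intervals. In T40, S4 exceeded S3 for OSBPL6 (30.9 and 9.05 CPM), and for TAOK3 the intervals of S4 and S3 (48.2 and 29 CPM) overlapped.

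PAG1 stood at 24.3 CPM in S4 of T10, beside 5.57 in S2 and 3.13 in S3, on 20 UMIs in all. The T20 levels were 28.3, 2.04 and 3.95 CPM in the same order of states. In T40 the S3 and S4 levels of PAG1 (23.5 and 32.0 CPM) no longer differed beyond counting error, and in T80 they were 36.3 and 32.6 CPM. TPBG was found in all 3 states of T10. It was at 90.6 CPM in S4 of T10, 39.7 in S2 and 31.3 in S3, and S2, being the largest state, held 52.8% of its listed UMIs. In T20 TPBG stood at 88.9 CPM in S4, 31.3 in S2 and 15.8 in S3. In T40 the values were 127 CPM in S4 and 50.7 in S3.

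SPOCK1 was spread differently over the states in the T10 and T20 libraries. In T10 its states did not differ beyond counting error, with 9.74 CPM in S2, 12.5 in S3 and 13.3 in S4. In T20, S4 cells held 92.9 CPM, beside 4.09 in S2 and 11.8 in S3, on 23 of 35 UMIs in 17 of 74 cells. That was 22.7-fold above S2 (8.99 to 68.2). Its level over all T20 cells was no higher than in T10. Unlisted cells, which have no state, held 13.9 CPM in T10 and 6.40 in T20. In T40 S4 stood at 149 CPM and S3 at 32.6. For PDE1C and TPBG the S4 levels of T10 and T20 overlapped, so this difference within S4 was seen for SPOCK1 and not for them. The difference between the genes was not tested.

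BCHE had 33 UMIs in 31 S4 cells of T40 (17.3 CPM) and 2 UMIs in S3 (3.62 CPM), a ratio of 4.78 (1.22 to 41.1). In T80, S4 was at 43.4 CPM and S3 had none, which allows up to 14.9 CPM. S4 was present in T10 and T20 too, but a gene seen in few S4 cells could be listed at 0 there, so BCHE's 0 says nothing about that state. In T40 a further 39 BCHE UMIs were in unlisted cells.

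**Figure D2:**
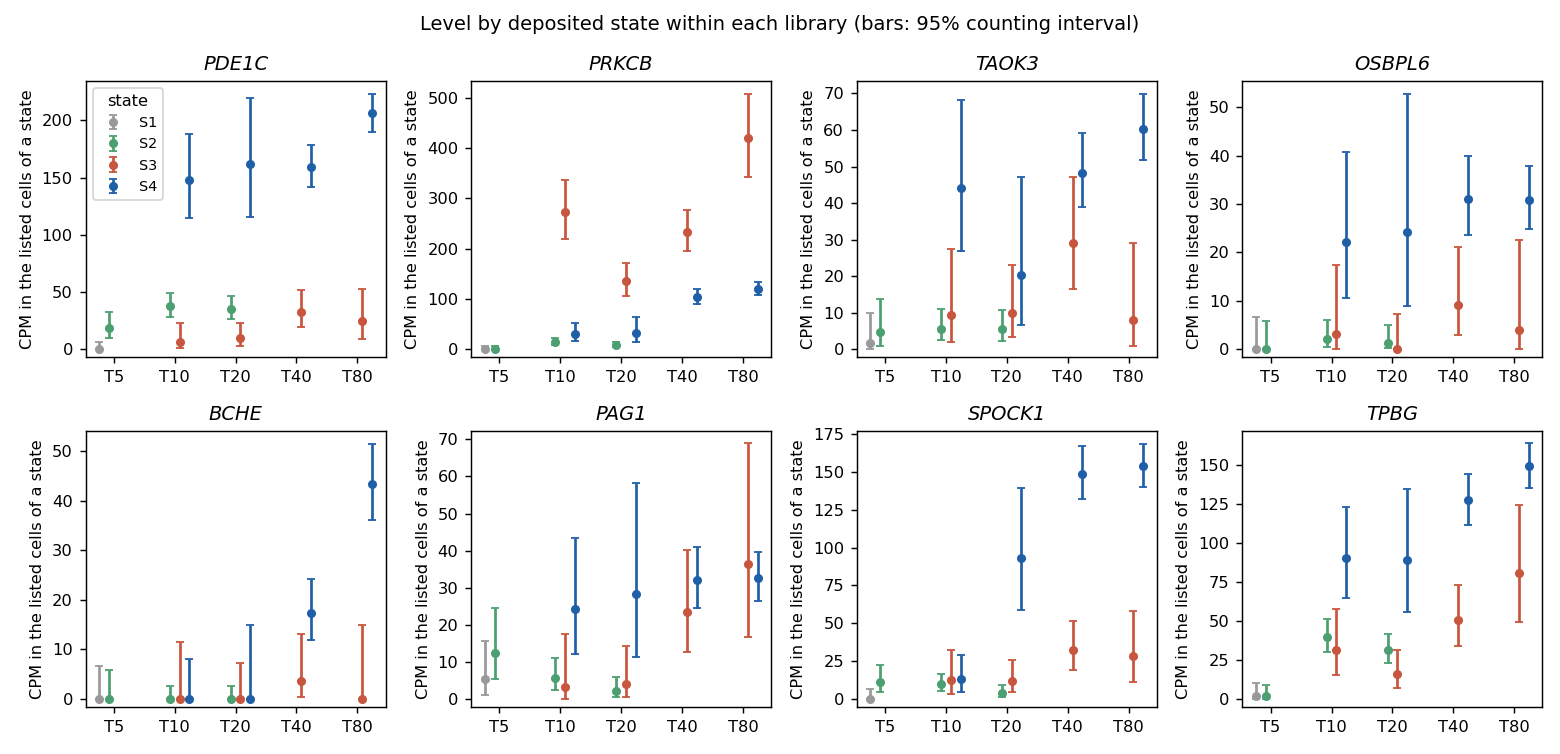
CPM of each gene (linear axis, own scale per gene) in the listed cells of each deposited state in T5 to T80, with exact 95% counting intervals; states with no point in a library had under 20 listed cells. S3 is highest for PRKCB in T10, T20, T40 and T80, and S4 is highest for PDE1C, TPBG and OSBPL6 in the same libraries.

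By the same threshold of 1, PDE1C and TPBG, 2 of 2 measured genes, were higher in S4 than in S2 of T10, beside 4.35% of all genes, and PRKCB, 1 of 1, was higher in S3 than in S2, beside 5.05%. From S3 to S4 in T10, PDE1C and TPBG were higher and PRKCB lower, 2 and 1 of 3, beside 7.19% and 8.82% of all genes. In T20, S4 exceeded S2 in 3 of 3 (PDE1C, SPOCK1 and TPBG), beside 5.66%, and S3 exceeded S2 in 1 of 1 (PRKCB), beside 5.54%. The genes counted in T10 and T20 met the 50 CPM minimum only through the state where they were high, so these counts follow from the minimum and nothing is read from them. T40 had 3 of 4 higher in S4 than in S3 (PDE1C, SPOCK1 and TPBG) and PRKCB lower, beside 4.48% and 5.14% of all genes. There TPBG and PRKCB met the minimum in both states, and PDE1C and SPOCK1 only in S4. In T80, 3 of 5 were higher in S4 than in S3 (PDE1C, SPOCK1 and TAOK3), all through S4 alone, and PRKCB was lower with both states above the minimum, beside 5.97% and 8.37%. In T10 TPBG dropped to 0.96 from S2 to S4 without the cells whose barcode occurs in another library. In T20 the mean of each cell's own CPM put TPBG at 0.77, and in T40 it put PRKCB at -0.89.

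Other features moved with these states. The summed level of the epithelial markers, of which 6 of 7 were analysed, was 3052 CPM in S3 of T10, beside 622 in S2 and 910 in S4; in T20 it was 3220, 641 and 1167, and in T40 2266 in S3 and 511 in S4. The 3 fibroblast markers analysed of 6 (COL1A1, PDGFRA and THY1) summed to 1858 CPM in S4 of T10, 625 in S2 and 376 in S3. In T20 they summed to 424 CPM in S4, 209 in S2 and 180 in S3, and in T40 to 132 in S4 and 76.0 in S3. Unlisted cells held 790, 301 and 175 CPM of them in T10, T20 and T40, so S4 of T40 was below the unlisted cells. CDH1, COL1A2, DCN and LUM were not analysed here. CD68, VWF and CDH5 were at 0 in the states of T10 and T20. Mitochondrial shares were 8.94%, 8.16% and 6.27% in S2, S3 and S4 of T10. Their part in the differences between states was not tested.

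PRKCB and PDE1C had almost the same course over the populations, yet were highest in different states of T10. The overlap of 2 courses was taken as the sum over the 10 populations of the smaller of the 2 genes' shares of their own summed CPM. It was 91.9% for PRKCB and PDE1C and 96.0% for PRKCB and TPBG, the highest of all pairs of the 8 genes. OSBPL6 and TAOK3 had 95.5%, and BCHE and SPOCK1 the lowest overlap at 63.1%. The 8 genes were chosen by their levels over these populations, so nothing is read from the size of these overlaps. In T10, 6 of the 164 cells with a PRKCB UMI also had one of PDE1C (3.66%, 1.35 to 7.79), beside 178 of the 1822 cells without (9.77%, 8.44 to 11.2), although the former were deeper (medians of 2490 and 1933.5 UMIs). After each cell was thinned to 1000 UMIs the shares were 1.09% and 5.05%. The thinned intervals overlapped in T10, as they did in T20 (5.71% and 3.94%), T40 (10.5% and 11.2%) and T80 (10.8% and 14.6%). They also overlapped in T160 (8.91% and 7.99%) and T320 (14.9% and 9.09%). Without thinning, cells with PRKCB, again the deeper ones, had PDE1C more often in T40 (28.4% and 21.9%) and T80 (38.5% and 32.0%). The same held in T160 (41.3% and 16.0%) and T320 (26.7% and 17.3%), and T20 had 10.7% and 11.5%. The difference between T10 and the later libraries was not tested.

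The listed cells of T10 and T20 were also compared with the T20 levels weighted by the T10 shares of states in listed UMIs. The 4 genes with the most listed UMIs over both are given. This is arithmetic on single libraries, and the part of state shares was not tested. In listed cells PDE1C was at 55.7 CPM in T10 and 43.7 in T20, and 57.6 with the T10 shares. TPBG went from 48.9 to 34.2 CPM, and to 40.9 with the T10 shares. PRKCB went from 55.2 to 40.1 CPM, and to 31.6 with the T10 shares. S3 held 14.5% of listed UMIs in T10 and 22.8% in T20. SPOCK1 went from 10.9 to 15.8 CPM, and to 23.4 with the T10 shares.

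Counting genes per cell showed how widely the 8 were carried. With every cell thinned to 1000 UMIs and shallower cells left out, 0.27% of C cells held a UMI of at least 1 of the 8 genes. The share was 2.06% in T5, 17.6% and 13.2% in T10 and T20, 39.1% and 45.0% in T40 and T80, and 25.3% and 44.0% in T160 and T320, and T1 and T2.5 had none. Cells left out numbered from 10 (T80) to 614 (T2.5). Without thinning the shares were higher, such as 29.4% in T10, 59.5% in T40 and 77.4% in T80. At least 2 of the genes were found in 1.47% of thinned T10 cells, 8.93% of T40, 10.6% of T80, 5.19% of T160 and 10.8% of T320 cells. Among the states of T10, S4 (28.7%) and S3 (26.4%) had similar shares of cells with at least 1, and S2 had 9.95%. In T40 the share was 46.2% in S4 and 32.8% in S3.

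**Figure D3:**
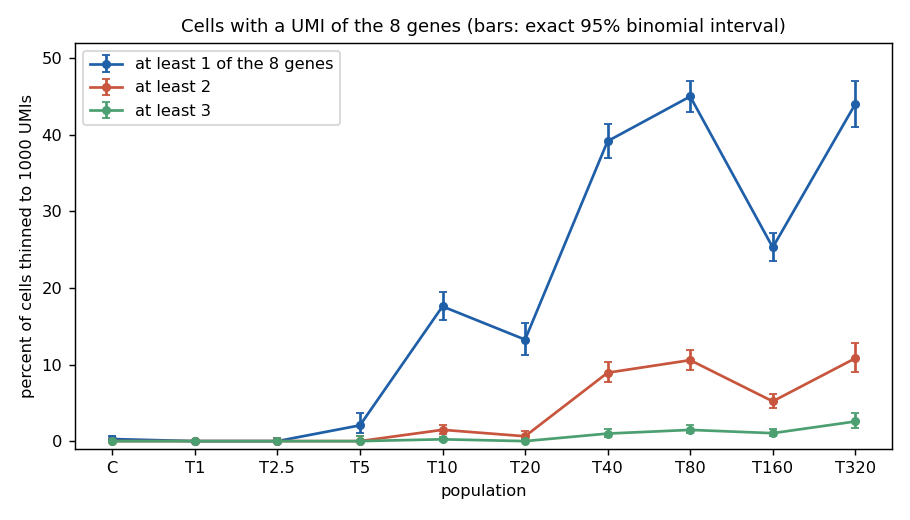
Percent of cells, each thinned to 1000 UMIs, with a UMI of at least 1, 2 or 3 of the 8 genes in the 10 populations (linear axis), with exact 95% binomial intervals. The share with at least 1 is at or near 0 through T2.5, reaches 17.6% in T10 and 45.0% in T80, and is lower in T160 at 25.3%.

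In the late libraries the genes differed in how they sat in listed and unlisted cells. Listed cells come from a deposit labelled g1. They were low in the G2/M genes MKI67, TOP2A, CCNB1, CDK1 and BIRC5, summed to 124 CPM in T320 beside 1595 CPM in unlisted cells. PAG1 stood at 34.8 CPM in listed and 90.2 in unlisted cells of T320, a ratio of 2.59 (1.83 to 3.75), and was above 1 in T40, T80 and T160 as well, at 1.72, 1.32 and 2.32. OSBPL6 was 2.08 times as high in unlisted as in listed T320 cells (1.48 to 2.97) and 1.67 times in T160. SPOCK1 was the reverse, with 144 CPM in listed and 65.4 in unlisted T80 cells (0.453, 0.390 to 0.527), 0.529 in T40 and 0.588 in T160. Its T320 ratio, 1.31, had an interval that included 1 (0.888 to 1.97).

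TAOK3 changed sides along the escalation. It was lower in unlisted cells of T40 (0.564, 0.407 to 0.775) and T80 (0.706, 0.569 to 0.875), level in T160 (0.976) and higher in T320 (1.75, 1.32 to 2.33). PDE1C was lower in unlisted cells of T80, T160 and T320, at 0.772, 0.744 and 0.750. PRKCB, its near match over the populations, was also lower in unlisted cells of T80 (0.881, 0.776 to 0.9996). Unlike PDE1C, PRKCB was higher in unlisted cells of T160 (1.43, 1.18 to 1.73) and T320 (1.37, 1.09 to 1.74). TPBG was lower in unlisted cells of T80 (144 CPM listed and 99.4 unlisted, 0.690, 0.604 to 0.789), and BCHE there stood at 40.0 and 30.7 CPM (0.767, 0.598 to 0.986). For both genes the intervals in T40, T160 and T320 included 1. Past the threshold of 1, PAG1 was higher in unlisted cells of T320, 1 of 7 measured, beside 5.25% of all genes, having met the minimum only through the unlisted cells. SPOCK1 was lower in T80, 1 of 5, beside 1.07%. None of 5 passed in T40, where 4.88% of all genes were higher and 1.03% lower, and none of 3 in T160, where 4.29% were higher and 0.415% lower. The median depth also differed, at 1934 UMIs in listed and 1794 in unlisted T320 cells, and 3364 in S4 and 2750 in unlisted cells of T80. The part of depth and of the G2/M genes in these ratios was not tested.

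**Figure D4:**
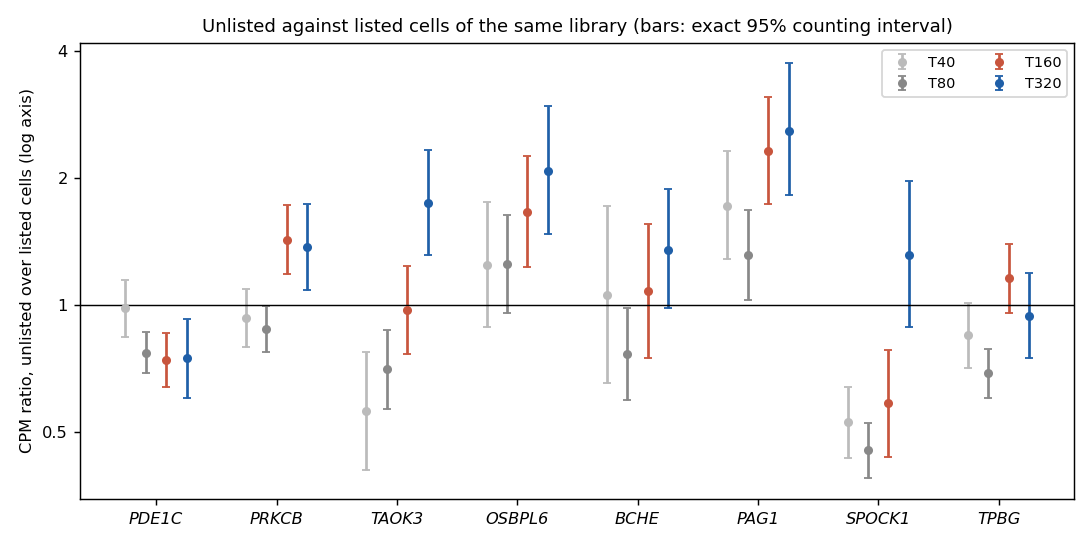
Ratio of CPM in unlisted to listed cells of the same library (log axis, line at 1) for each gene in T40, T80, T160 and T320, with exact 95% counting intervals. PAG1 lies above 1 in all 4 libraries, SPOCK1 below 1 in T40, T80 and T160, and TAOK3 goes from 0.564 in T40 to 1.75 in T320.

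Relatives and partners of the 8 gene products were taken from fixed lists. Of 102 genes on 8 such lists, 36 were measured between C and T320, with 7 higher and 3 lower. Over all measured genes 15.4% were higher and 11.6% lower in that contrast. Among those higher, PRKCA, OSBPL8, VAPB and GPC1 met the 50 CPM minimum only through T320, so nothing is read from these counts. Of protein kinase C and D genes and substrates, 2 of 6 were higher, PRKCA, another conventional isoform (38.5 and 93.4 CPM, 2.42-fold, 2.06 to 2.85), and the scaffold RACK1 (2.22-fold), and the substrate MARCKSL1 was lower (745 and 172 CPM). PRKCA had been measurable since C, unlike PRKCB. TAOK1 was the 1 of 6 TAO kinase partners that was higher (83.1 and 200 CPM). Of the oxysterol-binding family, 2 of 8 were higher, OSBPL8 (43.6 and 133 CPM, 3.05-fold) and the endoplasmic reticulum anchor VAPB (2.46-fold).

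FYN, a SRC-family kinase that PAG1 helps to restrain, was the 1 of 4 measured PAG1 partners past the threshold, at 193 CPM in C and 53.8 in T320. GPC1, a glypican, was the 1 of 5 proteoglycan genes that was higher (20.8 and 54.8 CPM), and FZD6, a Wnt receptor, the 1 of 3 measured genes of the Wnt list that was lower (196 and 78.9 CPM). No gene of the cholinesterase list was measured. The list medians lay between -0.55 (Wnt receptors) and 0.66 (oxysterol-binding family), beside 0.12 over all genes. TMM scaling moved the median of all genes from 0.12 to -0.22 and left 1 list gene higher, OSBPL8 at 1.17, and 9 lower, with FYN, FZD6 and MARCKSL1 still among them. Under TMM 9.14% of all measured genes were higher and 18.6% lower. The 7 genes counted as higher in T320 above stayed so.

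Genes whose course over the 10 populations was most like that of each of the 8 were sought among 5520 genes by the same overlap. SKAP2, an adaptor of SRC-family signalling, was nearest to PRKCB (95.3%), TPBG (93.8%) and PDE1C (92.5%). In T10 it was at 65.8 CPM in S3, 57.4 in S4 and 5.57 in S2, so it was found in the carriers of PRKCB and of PDE1C alike. ZC2HC1A was among the nearest 3 of the same genes, with 91.6% for TPBG, and PRNP (88.0%), PCDHB16 (88.2%) and STX8 (87.4%) filled the remaining places. GFPT2, an enzyme of hexosamine synthesis, was nearest to PAG1 (91.0%), TAOK3 (90.8%) and OSBPL6 (89.4%), each time with C16orf45 next. The remaining place was held by ZC2HC1A for TAOK3, the ligand gene CD70 for OSBPL6 and the hyaluronan receptor gene CD44 for PAG1. BCHE had no near match, with 83.8% for CD70, 74.7% for GFPT2 and 71.0% for C16orf45. SPOCK1 was nearest to the protocadherins PCDHB10 (91.2%) and PCDHB16 (90.6%) and the metalloprotease ADAM12 (86.1%). All points of these courses share the same libraries, and only 11 of the 24 nearest genes were also among the nearest 3 by Pearson correlation.

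The 8 genes, all protein-coding, lie on 8 chromosomes (GRCh38, GENCODE 29). PDE1C spans 31751179 to 32299329 on chromosome 7, PRKCB 23835946 to 24220611 on 16, TAOK3 118149801 to 118372945 on 12, OSBPL6 178194481 to 178402891 on 2, and BCHE 165772904 to 165837472 on 3. PAG1 spans 80967810 to 81112068 on chromosome 8, SPOCK1 136975298 to 137598379 on 5, and TPBG 82363206 to 82370828 on 6. PRKCB, OSBPL6 and TPBG are on the plus strand and the others on the minus strand. Of 28 measured genes that start within 1 Mb of them, 2 were higher and 4 lower in T320 than in C, beside 15.4% and 11.6% of all measured genes. The nearest measured neighbour of TPBG, IBTK at 115 kb, was higher by 1.09 (22.4 and 59.1 CPM), and the next on the other side, PGM3, differed by 0.96. IBTK met the 50 CPM minimum only through T320, so nothing is read from that call. For PRKCB the nearest was PLK1, a mitotic kinase gene at 158 kb, which was lower by 1.19 on the log2 scale, and RBBP6 on the other side differed by 0.56. LSM5 near PDE1C, PEBP1 near TAOK3, NFE2L2 and PRKRA near OSBPL6, ZBTB10 and ZFAND1 near PAG1 and HNRNPA0 near SPOCK1 stayed within 1, and BCHE had no counted gene within 1 Mb. None of the 8 shared a 31-base stretch in the last 500 bases of its transcript with another gene.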

How the data were processed

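Single-cell libraries of 10 populations, 1 each, were analysed. The matrix deposited by the authors holds raw UMI counts. The deposited table of states adds, for each cell, counts of UMIs and genes and a mitochondrial fraction. The submitters' processing notes name Seurat 2.3.2 and the build hg38 (GRCh38). Aligner, annotation, cell filters and state assignment: not given in the sources used here, beyond the label g1 on the deposited states. Names tied 7322 of the 8240 cells in that table to the matrix, and population plus barcode tied the other 918 (T40). UMI totals were equal in all. There were 0 other columns of per-sample values. All cells were kept and no doublet caller was run.

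Counts were summed over the cells of a library or state and scaled to CPM (Python 3.11.15, pandas 2.3.3, scipy 1.17.1). Poisson ratio intervals and Clopper-Pearson intervals, both at 95%, cover counting error only. With 1 library per population no p-value was computed; states under 20 cells were left out. Every cell is of the line, so no cell type that should lack a gene was at hand, and the other states served beside each share. edgeR supplied TMM factors as an alternative scaling only.

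The 8 genes, the lists of relatives and the markers were chosen with earlier results of these data known. Named were the 8 genes, their 3 nearest courses (no clone names), up to 3 relatives per list in each direction past 1, and the nearest measured gene on each side within 1 Mb. The lists were phosphodiesterases, protein kinase C and D, TAO kinase partners, oxysterol-binding proteins, cholinesterases, PAG1 partners, small proteoglycans and Wnt receptors, and markers of epithelium, serous ovarian lineage, fibroblasts, leukocytes, endothelium, neurons and G2/M. Serous markers summed to 840 CPM in C and 198 in T320, and MAP2, the 1 neural marker analysed, to 17.8 and 88.8. The phosphodiesterase list counts in the totals and is otherwise not reported here. Scripts were tested on simulated data.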

Additional observations from a re-analysis of the deposited data

How the results depend on the processing

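No paired analysis was possible because each population has 1 library and no replicate numbers are shared. In the alternatives run (TMM, median-of-ratios, listed cells only, cells below the 95th percentile of UMIs, 1 or 50 CPM added, minimums of 20 or 0 CPM, mean of per-cell CPM, and, added after seeing the data, barcodes of 1 library only), no called difference of the 8 genes changed sign. With 50 CPM added, genes higher from T5 to T10 went from 3 to 1, from T20 to T40 from 4 to 2 and from T160 to T320 from 3 to 0, and those lower from T80 to T160 from 2 to 0. Listed cells alone left 1 higher from T160 to T320. A minimum of 20 CPM gave 7 higher from T20 to T40, and no minimum gave 8. By T10, 7 genes were listed, but 0 had reached 50% of their highest level. Cells with at least 1 of the genes made up 24.4% of T10, 54.3% of T40 and 58.0% of T320 at 1500 UMIs, and 29.4%, 59.5% and 59.4% without thinning. Relatives higher and lower numbered 11 and 6 at a minimum of 20 CPM, and 1 and 9 under TMM. Within 500 kb, 1 neighbour was higher and 2 lower. By correlation, 11 of the 24 nearest genes stayed in the first 3. Lower minimums test more genes, and a larger constant shrinks every difference. Other causes were not tested. Apart from the TMM shares given above, no share of all genes stands beside these counts of higher and lower genes. Nothing is therefore read from them. Depth limits the early states most, where several genes rest on 1 to 14 UMIs.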
